A study of Macrostomum lignano with 16 samples.

Results

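The marine flatworm Macrostomum lignano was compared, as whole adults, between 2 social settings held for 64 days. Octet worms lived in groups of 8, and isolated worms lived alone. The comparison was chosen by housing label only and takes 8 of the 16 RNA-sequencing libraries of the study, 4 of octet worms and 4 of isolated worms. The other 8 libraries, 4 from worms kept as constant pairs and 4 from joined worms, which lived alone except for a final 24 h spent with another worm, are used here for reference levels and for a shared estimate of the spread. All worms were adults of strain DV1, an inbred laboratory line, were 66 to 69 days old, and had no treatment besides group size. Each library was made from RNA of a pool of whole worms, so the errors given are those of pools, not of single worms, and they describe 1 line.

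M. lignano is a simultaneous hermaphrodite: every adult carries paired testes and ovaries at the same time and mates reciprocally. Worms of this species are known to invest more in their testes in larger groups, where sperm of several partners compete, and an isolated worm has no partner to give sperm to or to receive it from. The study asked which transcripts follow this social setting. In RNA from whole worms, a change in the number of cells of a type and a change in RNA per cell cannot be told apart.

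The files give transcript identifiers that are not paired with gene names, and no sequences were used here. Germ cell, stem cell, neural and muscle markers could therefore not be checked, no role is given to any transcript, and a few transcripts per result are shown by identifier while the others are given as counts and ranges. Levels are read counts relative to library size (CPM) after scaling between libraries, which are not adjusted for transcript length, so a level is compared between groups and not between transcripts.

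The 4 octet libraries held 7717578 to 10112451 estimated reads and the 4 isolated libraries 7302416 to 8419801. On the first principal component of log2 CPM over these 8 libraries, which held 44.2% of the variance, octet pools lay at 27.4 to 96.3 and isolated pools at -83.2 to -38.4. Octet replicate 3, at 27.4, and isolated replicate 3, at -38.4, were the members of each group nearest to the other. Isolated replicate 3 also stood apart on the second component (15.8% of the variance), at 95.8, where the other isolated pools lay between -22.7 and -18.4. Counts of calls that move by over 1.5 times without these libraries are given both ways.

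Many transcripts differed between octet and isolated worms, most of them by a moderate amount, and a small set was raised by a very large amount. Of 40265 tested transcripts, 8640 (21.5%) were called at an adjusted p under 0.05 (limma-voom, Benjamini-Hochberg). They comprised 5157 (12.8%) that were higher and 3483 (8.65%) that were lower in octet worms. The median log2 fold change was 0.83 among the higher and -0.90 among the lower transcripts, and -0.03 over all tested transcripts. The 4 octet and 4 isolated libraries did not overlap in 8940 tested transcripts (22.2%), of which 6733 were called. The number of calls depended on the libraries present: it was 5643 without octet replicate 1 and 9975 without paired replicate 4. Lower calls were the less stable part, at 1851 when octet replicate 4 was left out, 2143 when isolated replicate 2 was, 2176 when octet replicate 1 was and 2274 when isolated replicate 4 was. The higher calls made up 59.7% of all calls, and 49.4% under upper-quartile scaling, and the median log2 fold change of all tested transcripts was -0.10 under that scaling.

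**Figure D1:**
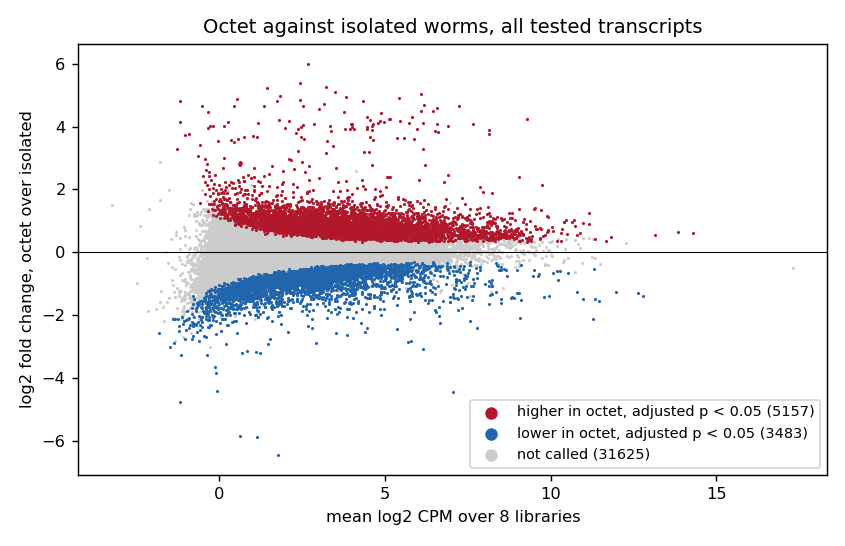
Each point is 1 of the 40265 tested transcripts, with its mean log2 CPM over the 8 libraries on the horizontal axis and its log2 fold change, octet over isolated, on the vertical axis. The 5157 red points were called higher and the 3483 blue points lower in octet worms, and a sparse band of red points near a log2 fold change of 4 has few blue counterparts.

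Most called changes were of moderate size. Between 1.5-fold and 2-fold there were 2522 higher and 1588 lower transcripts, and between 2-fold and 4-fold 1466 higher and 1291 lower. Between 4-fold and 8-fold lower calls were the more numerous, with 82 higher and 103 lower. Beyond 8-fold the balance turned to 102 higher and 16 lower, and beyond 16-fold it was 58 higher and 6 lower. With 1 library left out the higher count beyond 8-fold moved little, at 99 to 109 higher and 14 to 23 lower with any 1 of the 16 libraries left out, and at 101 higher and 16 lower with upper-quartile scaling. Limma-trend gave 92 higher and 8 lower, no filter on low counts 113 and 32, and summing transcripts that share a number 68 and 13. With octet replicate 3 and isolated replicate 3 both left out, which was tried after the data were seen, they were 106 higher and 44 lower.

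**Figure D2:**
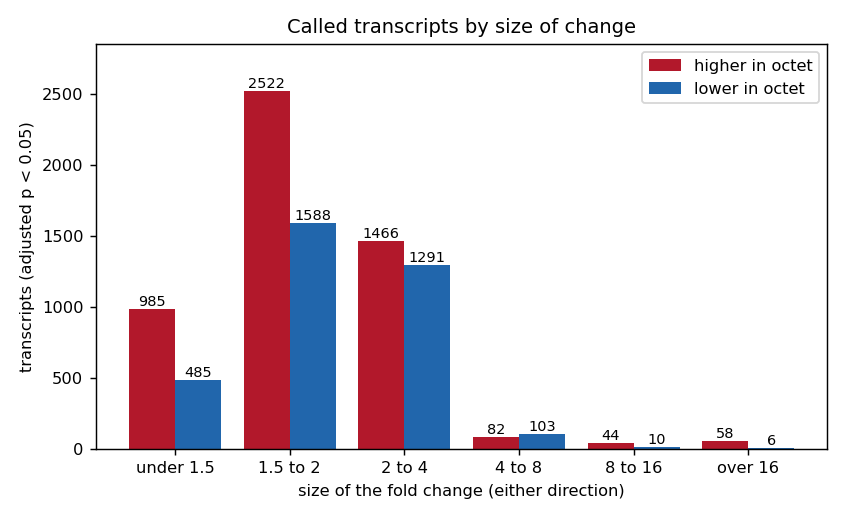
Bars give the number of transcripts called at an adjusted p under 0.05 in each class of fold change, red for higher and blue for lower in octet worms. Higher and lower calls are of similar number from 2-fold to 8-fold, while 58 higher and 6 lower transcripts changed more than 16-fold.

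A stricter question is which transcripts changed by more than a stated size. Against a threshold of 1.5-fold, 489 transcripts (1.21%) passed, namely 387 raised and 102 lowered ones (limma treat, adjusted p under 0.05). Against a threshold of 2-fold, 124 higher and 19 lower transcripts passed. Without octet replicate 1 there were 225 raised and 60 lowered transcripts past 1.5-fold. The lowered count depended most on the pools: it was 62 when octet replicate 2 or 4 was left out, 68 when isolated replicate 2 was, 65 when isolated replicate 4 was and 211 when isolated replicate 3 was. With octet replicate 3 and isolated replicate 3 both left out, 544 raised and 289 lowered transcripts passed. In the median transcript the 95% interval extended 0.52 log2 units to each side. The interval lay wholly within 2-fold up or down in 22390 transcripts (55.6%), of which 1963 were called, so small changes were resolved in a part of the transcriptome.

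Transcripts that drew more reads were more often higher in octet worms. Among the 425 transcripts with a mean log2 CPM over 8, 49.6% were called higher and 12.2% lower. Among the 6017 transcripts between 4 and 6 the shares were 25.5% and 10.1%, and among the 16981 between 0 and 2 they were 5.32% and 6.62%. Among the 2154 under 0 they were 2.41% and 8.12%. The median standard error of a log2 fold change was 0.15 in the class over 8 and 0.33 between 0 and 2, so the power to call a change differed between them. The median log2 fold change, which does not depend on that power, was 0.42 over 8, 0.14 between 4 and 6 and -0.13 between 0 and 2. It was -0.54 under 0, where reads are few and the 0.5 reads added before taking logs weigh most. These medians shift together with the scaling, which moved the median of all transcripts by less than 0.1 in the alternatives tried.

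The strongest rises and falls are described for called transcripts with a mean log2 CPM of at least 3, no overlap between the groups and 1 transcript per identifier number. The 2 that led the rises under these limits drew few reads in isolated worms. RNA815_29683.1 had 61.0, 81.7, 33.5 and 65.6 CPM in the 4 octet libraries, against 2.51, 1.81, 0.71 and 1.38 CPM in the 4 isolated libraries. The lowest octet pool was replicate 3, and it still stood far above every isolated pool. The log2 fold change was 5.25 ± 0.48 (SE; limma-voom, adjusted p = 1.09e-07). RNA815_38273 had 75.8, 92.3, 44.4 and 58.8 CPM in octet worms, against 2.13, 2.84, 1.19 and 1.66 CPM in isolated worms. Here too replicate 3 was the lowest pool of each group, and the log2 fold change was 5.09 ± 0.40 (SE; limma-voom, adjusted p = 9.43e-09).

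The 8 transcripts leading the rises under these limits had log2 fold changes of 4.64 to 5.25 with standard errors of 0.27 to 0.48. Octet replicate 3 was the lowest octet pool in 6 of these 8 and isolated replicate 3 the lowest isolated pool in 6 of 8. Below the level floor a larger rise was found, RNA815_9549.4, named after its values were seen, with a log2 fold change of 6.00 ± 0.58 (SE; limma-voom, adjusted p = 2.71e-07). All 8 leading transcripts kept their call in each of the 27 alternatives tried. In constant pairs their mean level lay between octet and isolated worms in 8 of 8, which the choice of extreme transcripts favours. The same held in 4 of 4 transcripts chosen for a narrow interval around 0. The share over all tested transcripts was not counted. The difference between octet and paired worms was called in 5 of the 8 (limma-voom, adjusted p under 0.05), and in 580 of all tested transcripts (1.44%). The 8 were chosen on the same octet libraries, which favours such calls, so this count and the values that follow are a description. For RNA815_38273 it was a log2 fold change of 1.34 ± 0.24 (SE; limma-voom, adjusted p = 0.0115), and for RNA815_29683.1 it was 1.03 ± 0.26 and missed the threshold (limma-voom, adjusted p = 0.051).

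**Figure D3:**
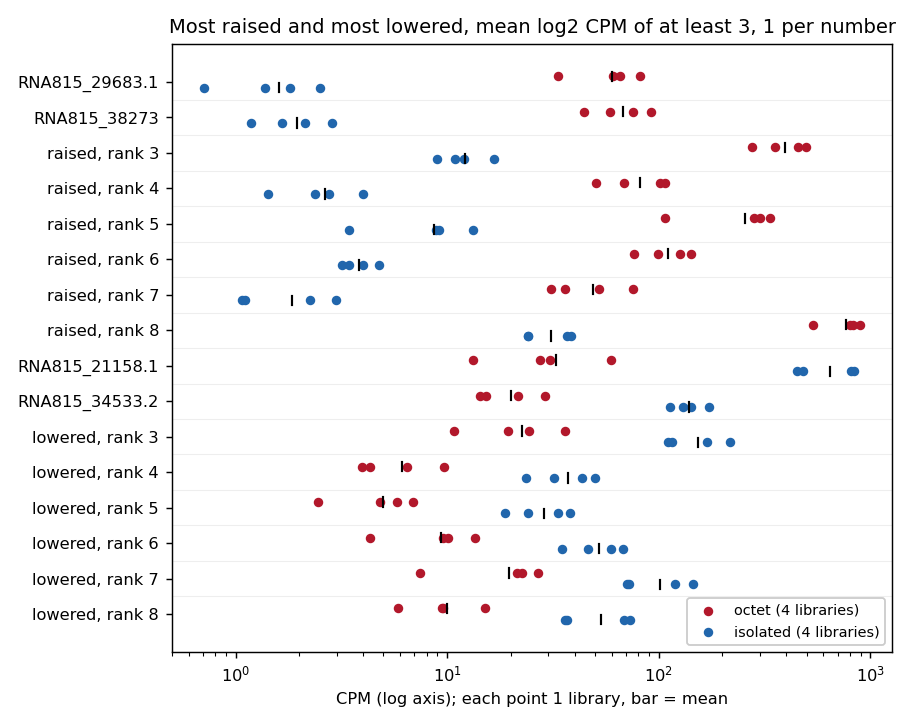
Level in CPM (log axis) of the 8 most raised and 8 most lowered transcripts by log2 fold change among those with a mean log2 CPM of at least 3, 1 per identifier number, with 1 point per library, octet in red above isolated in blue and a bar at each mean. In RNA815_29683.1, at the top, the octet points run from 33.5 to 81.7 CPM and the isolated points from 0.71 to 2.51 CPM, and the groups do not overlap in any of the 16, which the choice of transcripts required.

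The 102 transcripts raised more than 8-fold were chosen on octet and isolated libraries, so their levels there are a description. Their median log2 CPM was 6.11, 6.24, 5.25 and 5.57 in the 4 octet libraries, against 1.84, 1.95, 0.96 and 1.46 in the 4 isolated libraries. Replicate 3 had the lowest median of each group, and it was the lowest octet pool in 66 of the 102 and the lowest isolated pool in 64. Their reads together were 1.80%, 1.97%, 1.11% and 1.46% of the scaled library size in octet worms, against 0.12%, 0.107%, 0.0647% and 0.077% in isolated worms. Scaled library size is reads times the scaling factor of the library, so these are not shares of all reads. The paired and joined libraries entered the spread, filter and scaling, but not that fold change. There the median log2 CPM of the 102 was 4.87, 4.23, 4.49 and 5.42 in constant pairs, and 1.93, 2.18, 1.17 and 2.64 in joined worms. The paired value of replicate 4 thus lay inside the octet range, and the joined range overlapped that of isolated worms. The choice of the 102 favours levels between octet and isolated worms in another group. Octet and paired worms differed in 41 of the 102 (limma-voom, adjusted p under 0.05), against 580 of all tested transcripts (1.44%). The 102 were chosen for high levels in these octet libraries and low levels in these isolated libraries, which favours calls against either group, so nothing is read from these counts. Joined and isolated worms differed in 0 of the 102 (limma-voom), with 8 at an unadjusted p under 0.05. In that comparison 0 of all 40265 transcripts (0%) were called, with 2371 at an unadjusted p under 0.05. The fold changes of octet and paired worms share the isolated libraries and are therefore not compared further.

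Among lowered transcripts above the same level floor, RNA815_21158.1 and RNA815_34533.2 led. RNA815_21158.1 had 27.6, 13.3, 30.6 and 59.7 CPM in octet worms, against 479, 450, 813 and 833 CPM in isolated worms. The octet pools spread over a wider ratio than the isolated pools, and no octet pool came near an isolated one. The log2 fold change was -4.43 ± 0.34 (SE; limma-voom, adjusted p = 7.34e-09). RNA815_34533.2 had 21.6, 29.1, 15.3 and 14.3 CPM in octet worms, against 113, 142, 172 and 130 CPM in isolated worms, a log2 fold change of -2.84 ± 0.22 (SE; limma-voom, adjusted p = 9.15e-09). The groups stood well apart. Both identifiers carry a number shared with 1 other tested transcript, which was called lower as well: RNA815_21158.2 with a log2 fold change of -3.08 (limma-voom, adjusted p = 3.11e-07) and RNA815_34533.1 with -1.31 (limma-voom, adjusted p = 0.000168).

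The 8 leading falls under the same limits had log2 fold changes of -4.43 to -2.42 with standard errors of 0.22 to 0.52, and all 8 kept their call in each of the 27 alternatives. Octet replicate 3 was the lowest octet pool in 0 of them, and isolated replicate 3 the lowest isolated pool in 1. Their mean in constant pairs lay between octet and isolated worms in 6 of 8, and below both in the other two. Octet and paired worms differed in 1 of the 8, RNA815_34533.2, with a log2 fold change of -1.02 ± 0.23 (SE; limma-voom, adjusted p = 0.0326). Of all tested transcripts, 580 (1.44%) were called in that comparison. The 8 were chosen as extremes on these octet and isolated libraries. That choice favours such calls and paired means in between, so both counts are a description. RNA815_21158.1 averaged 32.8 ± 19.4 CPM in octet pools and 25.9 ± 8.84 CPM in paired pools (SD, n = 4 each), a log2 difference of 0.21 ± 0.36 (SE) that did not pass the test (limma-voom, adjusted p = 0.79).

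Some transcripts below the level floor were almost lost in octet worms. The floor is set on the mean over both groups, which the octet values near 0 pull down. Mean log2 CPM over the 8 libraries was 1.78 for RNA815_6699 and 1.15 for RNA815_10265, under the minimum of 3. Both are named after their values were seen. RNA815_6699 had 2, 5, 1 and 3 reads in the 4 octet libraries, against 126, 502, 250 and 240 reads in the 4 isolated libraries. In total that is 11 reads in octet and 1118 in isolated worms, and the log2 fold change was -6.45 ± 1.62 (SE; limma-voom, adjusted p = 0.00706). RNA815_10265 had 3, 0, 5 and 2 reads in octet worms, against 162, 108, 129 and 146 reads in isolated worms, a log2 fold change of -5.87 ± 0.84 (SE; limma-voom, adjusted p = 4.48e-05). The isolated pools of RNA815_10265 were close to one another, whereas those of RNA815_6699 differed widely. In constant pairs the means were 6.23 CPM for RNA815_6699 and 1.23 CPM for RNA815_10265, against 35.9 and 17.4 CPM in isolated worms.

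Many transcripts lowered more than 4-fold had few reads. Of these 119 transcripts, 21 had a mean log2 CPM of at least 3, against 13727 of all 40265 tested transcripts. Among the 102 raised more than 8-fold there were 59. The fold limits differ, so these counts do not compare falls with rises. The mean is taken over both groups, so low values in either group pull it down. A fitted fold change of a transcript with few reads depends on the 0.5 reads added before taking logs. No called transcript was at 0 reads in all 4 isolated or in all 4 octet libraries (limma-voom, adjusted p under 0.05). In the whole table of 76437 transcripts, 50 were at 0 in every isolated library with at least 1 read in each octet library, and 136 were at 0 in every octet library with at least 1 read in each isolated library. None of these had more than 18 reads in an octet library or more than 12 in an isolated one, so presence or absence could not be read from them at this depth.

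By change in reads rather than in ratio, other transcripts led. RNA815_3057.4 had 24692, 24745, 20769 and 30297 CPM in octet worms, against 17628, 16739, 20324 and 12050 CPM in isolated worms, the largest gain in mean CPM among called transcripts whose groups did not overlap. Octet replicate 3 and isolated replicate 3 almost met, and the log2 fold change was 0.60 ± 0.20 (SE; limma-voom, adjusted p = 0.0326). This call was lost in 8 of the 27 alternatives, namely leaving out octet replicate 1 (adjusted p = 0.0762), 2 (0.0594) or 4 (0.111), leaving out isolated replicate 1 (0.058), 2 (0.0648) or 4 (0.132), limma-trend (0.124) and upper-quartile scaling (0.0506). RNA815_7102.2 combined a large ratio with a high level. It had 3171, 3375, 1914 and 2587 CPM in octet worms, against 195, 172, 112 and 114 CPM in isolated worms, with a log2 fold change of 4.23 ± 0.27 (SE; limma-voom, adjusted p = 8.56e-10).

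Among the losses RNA815_46233 had 5254, 4140, 3159 and 4072 CPM in octet worms, against 7634, 9219, 15666 and 8942 CPM in isolated worms. Isolated replicate 3 was far above the other isolated pools, and the log2 fold change was -1.28 ± 0.22 (SE; limma-voom, adjusted p = 0.000313). RNA815_31.1 had 1317, 1007, 2600 and 566 CPM in octet worms, against 5203, 7826, 2766 and 6520 CPM in isolated worms. In this transcript both replicates numbered 3 lay close together, at 2600 CPM in octet and 2766 CPM in isolated worms. The log2 fold change was -2.14 ± 0.44 (SE; limma-voom, adjusted p = 0.00153). Both transcripts kept their call in each of the 27 alternatives. All 4 tested transcripts whose identifiers carry the number RNA815_31 were called lower in octet worms, with log2 fold changes of -2.24 to -1.64.

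The transcript with the most reads, RNA815_80.1, took 16.4%, 16.9%, 9.17% and 11.0% of the reads of the octet libraries, against 21.5%, 21.0%, 14.7% and 19.9% of those of the isolated libraries. The ranges overlapped, and the means of 13.4% ± 3.86 in octet and 19.3% ± 3.13 in isolated pools (SD, n = 4 each) gave a difference that did not pass an exact permutation test (two-sided p = 0.0857, and 0.143 adjusted over 3 library summaries). The smallest p that 4 against 4 libraries allow is 0.0286. The number of transcripts that together held 50% of a library's reads was 383, 438, 683 and 530 in octet worms, against 342, 340, 457 and 392 in isolated worms (exact permutation test, two-sided p = 0.143). Without RNA815_80.1 the difference in that number turned round, to 758, 892, 972 and 807 in octet worms, against 983, 974, 866 and 1019 in isolated worms (exact permutation test, p = 0.143). At least 1 read was found for 61690 ± 979 transcripts in octet and 63673 ± 1599 in isolated worms (SD, n = 4 each; exact permutation test, two-sided p = 0.114). With 1 of the 8 libraries left out, the same exact test gave unadjusted p-values of 0.0286 to 0.229. The lowest came without isolated replicate 3, the library that stood apart on the second component, with a difference of -2752 transcripts, octet minus isolated.

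Identifiers that share a number and differ by a suffix are treated here as a family of related transcripts. The number is shared by 9468 of the tested transcripts, in 4230 families. Of these 9468 transcripts 15.6% were called higher and 8.6% lower, against 11.9% and 8.67% of the 30797 whose number is not shared. Their median log2 CPM differed as well, at 2.52 and 2.02. In 1540 of the 4230 families at least 1 member was called between octet and isolated worms, and a family with more members has more chances of a call. Every tested member was called higher in 356 families and every one lower in 133, while members were called in opposite directions in 17. All 8 tested members of RNA815_7257 were called higher, with log2 fold changes of 0.92 to 1.39, and the family summed to 10396, 8394, 6727 and 8506 CPM in octet worms, against 3766, 3715, 4633 and 3435 CPM in isolated worms. All 5 tested members of RNA815_12566 were called lower, with log2 fold changes of -1.16 to -0.89. That family summed to 404, 461, 403 and 408 CPM in octet worms, against 878, 797, 825 and 923 CPM in isolated worms. These families were picked for their number of called members after the values were seen, and RSEM estimation can tie the values of similar transcripts to one another.

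In 55 of the 4230 families (1.3%) the members changed unequally (limma diffSplice, Simes p per family, adjusted p under 0.05), and in 15 of these 55 members were called in opposite directions. RNA815_10311 had the smallest p of all (limma, adjusted p = 1.09e-21). RNA815_10311.2 had 499, 501, 442 and 503 CPM in octet worms, against 147, 140, 121 and 105 CPM in isolated worms, a log2 fold change of 1.93 ± 0.13 (SE; limma-voom, adjusted p = 1.32e-09). RNA815_10311.1 had 14.5, 13.0, 17.0 and 18.4 CPM in octet worms, against 55.0, 59.2, 55.5 and 47.2 CPM in isolated worms, a log2 fold change of -1.79 ± 0.16 (SE; limma-voom, adjusted p = 1.08e-07). So RNA815_10311.1 held 2.95% ± 0.509 of the scaled reads of its family in octet worms and 27.1% ± 1.42 in isolated pools (SD, n = 4 each). The remaining 2 tested members were both called higher, with log2 fold changes of 0.87 and 0.86. Both named members kept their call in each of the 27 alternatives.

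**Figure D4:**
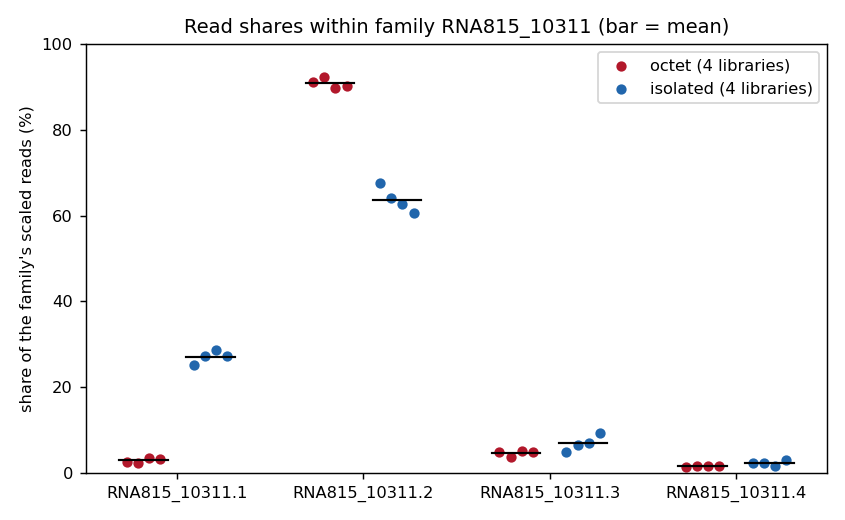
Share of the scaled reads of family RNA815_10311 held by each of its 4 tested members, in percent, with 1 point per library, octet in red left of isolated in blue and a bar at each mean. The share of RNA815_10311.1 lies between 2.4% and 3.45% in octet worms and between 25.2% and 28.7% in isolated worms.

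The family of RNA815_80.1 was also among the unequal ones (limma diffSplice, adjusted p = 1.11e-09). RNA815_80.4 had 425, 526, 325 and 413 CPM in octet worms, against 26.2, 18.2, 14.5 and 16.4 CPM in isolated worms, a log2 fold change of 4.50 ± 0.30 (SE; limma-voom, adjusted p = 1.05e-09). The member called lower was RNA815_80.3, with means of 9.16 CPM in octet and 27.8 CPM in isolated worms. Its log2 fold change was -1.58 ± 0.24 (SE; limma-voom, adjusted p = 7.73e-05). RNA815_80.2 varied widely within groups, from 98.2 to 665 CPM in octet and from 36.7 to 298 CPM in isolated pools. RNA815_80.1 itself had a log2 difference of -0.50 ± 0.22 (SE) and did not pass the test (limma-voom, adjusted p = 0.111), but it was called in 2 of the 26 alternatives that included it. RNA815_80.4 held 0.303% ± 0.0671 of the family's scaled reads in octet and 0.00945% ± 0.00159 in isolated pools (SD, n = 4 each), and RNA815_80.1 held 98.4% ± 0.543 in octet and 99.1% ± 0.226 in isolated worms. How the estimation divided reads between these members was not tested.

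The distance between the groups was not the same in every pool. Over the 5157 transcripts called higher, the median log2 CPM was 4.32, 4.23, 4.03 and 4.25 in the octet libraries, against 3.41, 3.29, 3.36 and 3.26 in the isolated libraries. Over the 3483 called lower it was 2.13, 2.2, 2.37 and 1.94 in octet worms, against 3.02, 3.17, 2.89 and 3.13 in isolated worms. Octet replicate 3 was thus the octet pool nearest to the isolated level in both sets, being the lowest of its group in 56.4% of the higher and the highest of its group in 52.2% of the lower transcripts. These transcripts were chosen on the same 8 libraries. The paired and joined libraries entered the shared spread, filter and scaling, but not the fold change. In constant pairs the medians were 3.76, 3.67, 3.80 and 4.00 for the higher set and 2.78, 2.91, 2.65 and 2.41 for the lower set. Paired replicate 4 was nearest to the octet level in both. Choosing transcripts on octet and isolated levels favours a place between them for another group, so these medians are a description. In joined worms they were 3.24, 3.28, 3.23 and 3.39 for the higher set and 3.24, 3.15, 3.16 and 3.01 for the lower set.

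**Figure D5:**
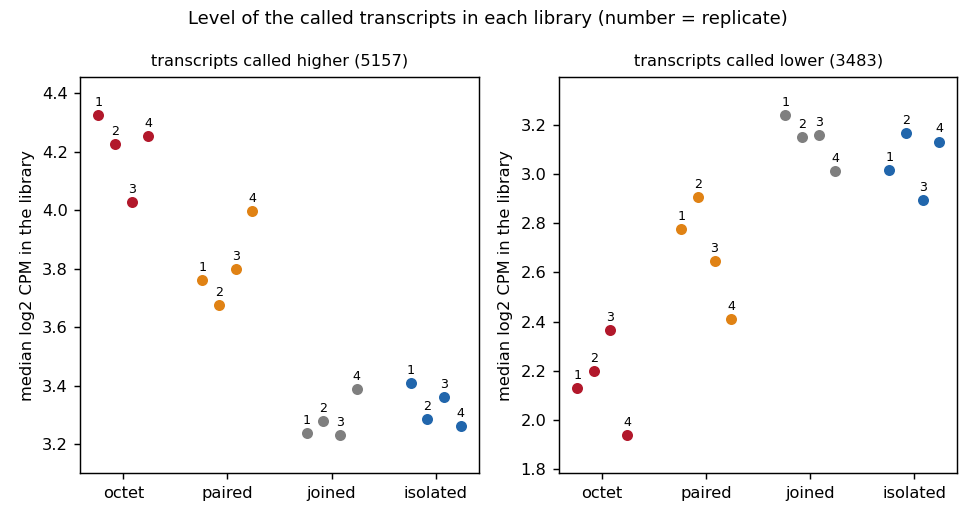
Median log2 CPM in each of the 16 libraries of the transcripts called higher (left) and lower (right) in octet than in isolated worms, with the replicate number at each point. Octet libraries lie at 4.03 to 4.32 and isolated libraries at 3.26 to 3.41 in the left panel, and paired libraries lie between them, at 3.67 to 4.00. The choice of the transcripts on octet and isolated libraries favours such a place.

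The shift can also be read from summed levels. Reads of the higher set were 44.3%, 39.8%, 34.7% and 42.9% of the scaled library size in octet worms, against 24.2%, 22.7%, 25.7% and 21.6% in isolated worms. Those of the lower set were 8.02%, 7.25%, 9.48% and 6.42% in octet worms, against 14.7%, 16.5%, 14.4% and 16.6% in isolated worms. Scaled library size is the reads kept times a scaling factor. That factor was 0.85, 0.93, 1.06 and 0.95 in the octet and 0.97, 0.98, 1.01 and 1.00 in the isolated libraries. These percentages are therefore not shares of all reads, and the factor enters the differences between pools. The groups do not overlap in either sum, which the choice of the transcripts favours. The spread between pools was similar in both settings: the median SD of log2 CPM over the 4 pools was 0.31 in octet and 0.30 in isolated worms over all tested transcripts, and 0.23 and 0.20 over the 13727 with a mean log2 CPM of at least 3.

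Other transcripts were held within narrow bounds. In 4147 transcripts (10.3%) the 95% interval of the log2 fold change lay within 0.5 to either side of 0. The one with the most reads among them, RNA815_169.1, had 6235, 4876, 5415 and 5454 CPM in octet worms, against 4355, 4397, 4849 and 4425 CPM in isolated worms. Its groups did not overlap. The log2 difference was 0.28 with a 95% interval of 0.07 to 0.49, which did not pass the test (limma-voom, adjusted p = 0.0506) but did in 11 of the 27 alternatives. RNA815_2025.1 had 2353, 2059, 2661 and 2181 CPM in octet worms, against 2534, 2408, 2792 and 2606 CPM in isolated worms, a log2 difference of -0.16 with a 95% interval of -0.39 to 0.06 (limma-voom, adjusted p = 0.28), and was called in none of the 27 alternatives. The interval, and not the missed call, is what bounds a change in these transcripts.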

How the data were processed

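RNA of whole worms was pooled into 16 libraries and read as single-end reads of 100 bp, per the labels. The submitters' processing notes name Bowtie 0.12.7 and RSEM 1.1.19. The authors deposited estimated counts per transcript, not scaled for depth, with decimal commas and with 23.8% of cells not whole numbers. RSEM divides reads among similar transcripts by estimation. No count model was used, because values written with decimal commas failed the unit check for counts, and limma-voom took the place of the quasi-likelihood test planned as the main test.

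Estimated counts were rounded, and transcripts with at least 1.26 CPM (10 reads in the library of median size) in at least 4 libraries and at least 15 reads in all were kept. They were 40265 of 76437 and held 98.8% to 99.2% of reads. Libraries were scaled by the trimmed mean of M-values (TMM, trims of 30% and 5%). A model of 4 groups was fitted to all 16 libraries (limma 3.58.1 in R 4.3.3, voom, 0.5 reads added, 12 residual and 10.3 prior degrees of freedom). P-values were adjusted by Benjamini-Hochberg across every transcript tested. Families were tested with diffSplice, and library summaries with two-sided exact permutation tests. The scripts were tested on simulated data.

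The members and lists were chosen with earlier results of these data known. Among transcripts called, with a mean log2 CPM of at least 3 over the 8 libraries and with no overlap between groups, the rule took the 8 highest and 8 lowest log2 fold changes and the 5 largest gains and losses in mean CPM, at most 1 per identifier number. It added the 4 families with the smallest Simes p whose members were called in opposite directions, the 4 transcripts with the most reads whose 95% interval lay within 0.5 of 0, and RNA815_80.1. A part of the rule for transcripts at 0 in a whole group found none. Alternatives were other scalings and filters, unrounded values, limma-trend, library weights, a replicate block, the 8 libraries alone, summed families and each library left out. No pair of libraries within either group agreed within sampling noise (chi-square per degree of freedom 2.25 to 9.65).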

Additional observations from a re-analysis of the deposited data

Results flagged for a closer look

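In 46 groups of 4 libraries examined, 4 held a library far from the others, where its gap to the nearest library divided by the range of the group passed the 95% critical value of Dixon's test. Chance flags about 1 in 20 groups. Total reads in octet worms gave 0.936, from octet replicate 1 with 10112451 reads. The second principal component in isolated worms gave 0.964, from isolated replicate 3 at 95.8. RNA815_10311.2 in octet worms gave 0.935, from octet replicate 3 at 442 CPM. RNA815_169.1 in isolated worms gave 0.859, from isolated replicate 3 at 4849 CPM.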

How the results depend on the processing

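With 1 of the 16 libraries left out, called transcripts numbered 5643 to 9975, with 3467 to 5843 higher and 1851 to 4184 lower in octet worms, 285 to 644 changed beyond 1.5-fold and 38 to 68 families changed unequally. With 1 of the 8 libraries left out, octet minus isolated ranged from -7.45 to -4.52 percentage points for the read share of RNA815_80.1, from 67.6 to 168 for the transcripts holding 50% of reads, and from -2752 to -1506 for transcripts detected. For transcripts detected the unadjusted p of the exact permutation test ran from 0.0286, without isolated replicate 3 (-2752), to 0.229. Leaving RNA815_80.1 out turned the 50% difference to -103.25, because that transcript fills part of the 50%. An adjusted p under 0.01 left 3989 calls, 2854 higher and 1135 lower, and a 2-fold threshold left 143 of the 489. Library weights gave 5286 lower calls, 926 transcripts beyond 1.5-fold and 88 unequal families. Leaving out octet replicate 3 and isolated replicate 3 together, chosen after seeing the data, gave 833 beyond 1.5-fold. A replicate block gave 764 beyond 1.5-fold and 10850 calls. Under that block RNA815_80.1 was called (limma-voom, adjusted p = 0.0195). The labels do not say what a number marks. Running numbers in the column headers set the 4 groups of a replicate number side by side. Deviations of octet and isolated libraries of the same number correlated at r = 0.04, 0.07, -0.11 and -0.10 for numbers 1 to 4, and only octet replicate 1 matched its own number best. With 4 libraries per group this check cannot settle whether numbers mark pairs, and the main fit did not treat the libraries as paired. Replicate 3 had the lowest read share of RNA815_80.1 in the octet, joined and isolated groups, and whether numbers mark a shared set was not settled. Of 36 named transcripts that were called, 34 kept the call in each of the 27 alternatives that followed single transcripts. The other 2 lost it in some (RNA815_3057.4 in 8 and RNA815_908.1 in 14 of 27) and 0 reversed. Most were chosen on these data for large changes, which favours keeping a call. The 27 include the joint removal of octet and isolated replicate 3, but not the stricter adjusted p or the summed families. For the changes that follow from weights, block or libraries left out, the cause was not tested. Intervals reflect a spread between pools that is shared by the 4 groups and estimated from all 16 libraries. A median reach of 0.52 log2 units limits small changes.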
